A study of Rattus norvegicus with 2 samples.

Results

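Cholesterol synthesis genes were examined in RNA from rat hippocampal synaptosomes and from total hippocampus. The set was chosen by name as 7 enzymes of the pathway (Hmgcs1, Idi1, Fdps, Fdft1, Sqle, Lss and Dhcr7), and every probe set whose only platform gene symbol was one of these was taken. This gave 15 probe sets for 6 genes, out of 7006 probe sets for 4736 genes with a single symbol on the array. No probe set carried Hmgcs1 as its single symbol, so Hmgcs1 is not analysed here. Synaptosomes are nerve terminals that pinch off and reseal when brain tissue is homogenised, together with the postsynaptic membrane that stays attached, and they are purified biochemically. Both RNA samples came from hippocampi of Sprague Dawley rats aged 70 postnatal days, with no genetic change or treatment named in the labels, and the number of animals is not in the labels. Each was measured on 1 Affymetrix rat expression array, with cRNA made from amplified cDNA that had been primed at the poly(A) tail, in order to find mRNAs enriched at the synapse. With 1 array per group every value below is a single measurement, no test between the groups was possible, and the number of arrays limits the precision.

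Cholesterol is built from acetyl-CoA through mevalonate and isoprenoid diphosphates to squalene, which is then oxidised, closed into the sterol ring system and reduced. The brain makes its own cholesterol because lipoproteins of the blood do not cross the blood-brain barrier. In the adult brain astrocytes are a main site of synthesis and pass cholesterol to neurons on apolipoprotein E particles, while oligodendrocytes use it for myelin. The genes of the pathway are known targets of the transcription factor SREBP2, which is released from the endoplasmic reticulum when membrane sterol is low and which acts together with NF-Y and Sp1 at many of their promoters.

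The promoters are shown because shared binding boxes are a sequence feature of these genes that the choice by name did not use. RefSeq promoter windows of rat assembly GRCr8, covering 250 bases before and 50 after the start of each gene, were found for 5 of the 7 genes (Hmgcs1, Idi1, Fdps, Lss and Dhcr7), and not for Fdft1 and Sqle. Those of Dhcr7, with higher signals in synaptosomes, Fdps, with lower ones, and Idi1, with a ratio near 0, are printed 5′ to 3′ on the strand of the gene, with matches to CCAAT or GGGCGG on either strand in capitals.
Dhcr7 (chr1:208444184-208444483, plus strand): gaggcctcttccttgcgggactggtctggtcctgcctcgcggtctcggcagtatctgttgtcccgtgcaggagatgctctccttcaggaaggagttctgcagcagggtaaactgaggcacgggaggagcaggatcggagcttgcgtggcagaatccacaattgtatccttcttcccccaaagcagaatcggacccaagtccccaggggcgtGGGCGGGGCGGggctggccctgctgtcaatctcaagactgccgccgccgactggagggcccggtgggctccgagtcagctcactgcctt
Fdps (chr2:176804767-176805066, minus strand): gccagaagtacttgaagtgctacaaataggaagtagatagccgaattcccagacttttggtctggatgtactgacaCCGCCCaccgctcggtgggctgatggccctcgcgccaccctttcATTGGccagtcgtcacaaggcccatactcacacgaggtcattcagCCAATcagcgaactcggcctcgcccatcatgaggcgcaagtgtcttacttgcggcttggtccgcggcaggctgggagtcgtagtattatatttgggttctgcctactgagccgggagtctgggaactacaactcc
Idi1 (chr17:66547475-66547774, minus strand): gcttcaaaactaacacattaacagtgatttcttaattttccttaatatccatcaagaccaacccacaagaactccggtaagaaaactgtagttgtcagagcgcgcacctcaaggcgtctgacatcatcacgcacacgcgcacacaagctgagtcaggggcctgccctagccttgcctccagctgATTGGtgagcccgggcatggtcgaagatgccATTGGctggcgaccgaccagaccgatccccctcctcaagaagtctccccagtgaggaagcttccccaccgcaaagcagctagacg
CCAAT, the box bound by NF-Y, was matched in 4 of the 5 promoters, against 37.7% of 27457 rat promoters of the same length. GGGCGG, the box bound by Sp1, was also matched in 4 of the 5, against 34.9% of all promoters. The Fdps promoter held CCAAT on opposite strands at bases -130 to -126 and -85 to -81 from the start, and the Idi1 promoter held it on the opposite strand at -66 to -62 and -35 to -31. The Dhcr7 promoter held no CCAAT and 2 GGGCGG matches that overlap by 1 base, at -39 to -34 and -34 to -29. TCACNCCAC, a form of the sterol regulatory element bound by SREBP, was in none of the 5 windows and in 1.13% of all promoters. These are matches of letters in a window, and both arrays measured RNA levels in a fraction and in whole tissue, so nothing about promoter use was measured.

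Signals are the authors' deposited intensities, on a linear scale that can fall below 0. The same trimmed mean of 2500 on both arrays showed that they had been scaled to one target. A floor of 846, the median of all non-control signals, was set, and a signal under it was treated as not measured above background. The ratio is log2 of synaptosome over total hippocampus, with signals under the floor set to it. It was centred by subtracting the median of -0.17 over the probe sets that passed a filter on mean level, which 4370 did. All log2 ratios and folds below include this centring unless stated otherwise, a factor of 1.13, so a centred fold of a gene higher in synaptosomes is 1.13 times its plain quotient of signals. A probe set was called higher or lower at a centred fold of 2 or more, a ratio of 1 on the log2 scale. Error could be measured only as the spread between probe sets of one gene, an SD of 0.90 on the log2 scale over 658 genes, which leaves out animals, preparations and amplifications. Noise was also gauged from the negative signals, as the size that 95% of them did not exceed, 2912.6 for synaptosomes and 5280.25 for whole hippocampus.

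The cholesterol synthesis enzymes did not move one way. Dhcr7 and Sqle had ratios past 2-fold higher in synaptosomes. Of their readings only the Dhcr7 signal of 4797 in synaptosomes exceeded its array's noise size. All 3 probe sets of Fdps had lower signals in synaptosomes, and Idi1 and Lss lay near a ratio of 0. The probe sets of Fdft1 disagreed, with 1 near 0 and 1 lower. Of the 15 probe sets, 9 exceeded the floor on both arrays, 1 in synaptosomes alone, 1 in whole hippocampus alone and 4 on neither array, and 10 passed the filter. Of those 10, 3 were at least 2-fold higher in synaptosomes, where 19.1% of all passing probe sets were, and 1 was at least 2-fold lower, where 14.9% of all were. One brightest passing probe set per gene left 2 of 6 genes at least 2-fold higher and 0 lower, against 19.1% and 14.3% of 2735 genes. With the mean over passing probe sets instead, 2 genes were higher and 1, Fdft1 with its bound included, was lower. The median ratio of the 6 genes was 0.12, against 0.00 for all genes, and the 6 ratios ran from -0.38 to 1.35. Without centring the median of the 6 genes was -0.05. With the floor at 2798.5, 0 of the 6 member probe sets that passed were at least 2-fold higher or lower. Of 1719 genes there, 10.1% were higher and 7.91% lower. With the floor at the noise size of each array it was 0 of 3, beside 14.3% higher and 7.77% lower of 991 genes. Sqle had no ratio at either floor.

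**Figure D1:**
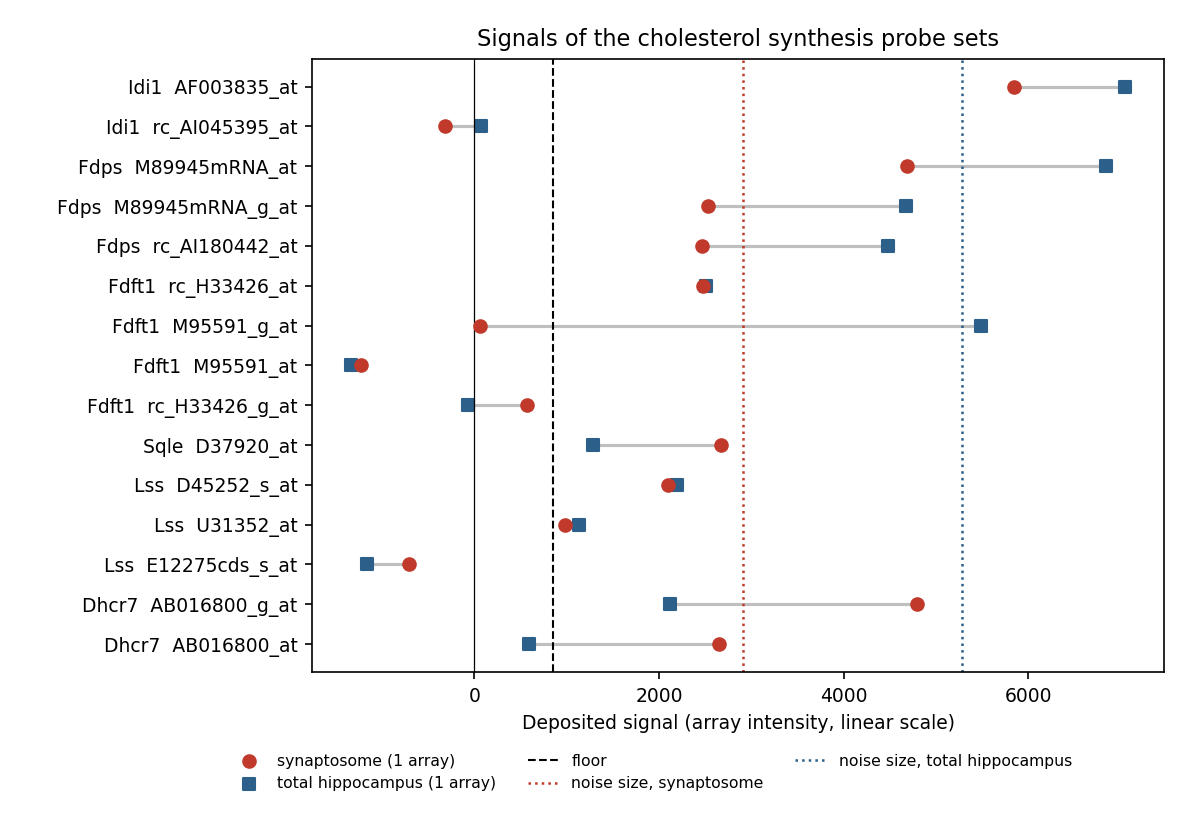
Deposited signal (x axis, linear array intensity) of each of the 15 probe sets, in pathway order, on the synaptosome array (circles) and the total hippocampus array (squares). The dashed line is the floor of 846 and the dotted lines are the noise sizes of 2912.6 and 5280.25. Among probe sets with a reading past the floor, circles lie right of squares for Dhcr7 and Sqle and left of them for Fdps, and only Idi1 AF003835_at and Fdps M89945mRNA_at exceed the noise size on both arrays.

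Idi1, the isomerase that turns isopentenyl diphosphate into dimethylallyl diphosphate and so provides the starter of isoprenoid chains, was measured above noise with 1 of its 2 probe sets. Its probe set AF003835_at read 5849 in synaptosomes against 7050 in whole hippocampus. Both readings exceeded the noise size of their array. The centred log2 ratio was -0.10, with 45.8% of all genes lower, and a difference of this size is well under the SD between probe sets. The second Idi1 probe set, rc_AI045395_at, read -318 in synaptosomes against 68 in whole hippocampus, under the floor on both, and has no ratio.

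Fdps, farnesyl diphosphate synthase, makes the diphosphate from which both sterols and the farnesyl and geranylgeranyl anchors of proteins are derived. Its probe set M89945mRNA_at read 4685 in synaptosomes against 6844 in whole hippocampus, which is a log2 ratio of -0.38. The companion design on the same source sequence, M89945mRNA_g_at, read 2529 in synaptosomes against 4678 in whole hippocampus, which is a log2 ratio of -0.72. The independent expressed sequence tag rc_AI180442_at read 2469 in synaptosomes against 4484 in whole hippocampus, which is a log2 ratio of -0.69. All 3 signals were lower in synaptosomes, none reached 2-fold, and each ratio was under the SD of 0.90. The SD of the 3 ratios was 0.19, and their mean was -0.59. Of 118 genes with 3 passing probe sets, 16.1% had all 3 ratios below 0. Without centring the Fdps ratios were -0.55, -0.89 and -0.86, and 22% of those genes had all 3 below 0. Only the first probe set exceeded the noise size on both arrays.

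Fdft1, squalene synthase, joins farnesyl diphosphate units into squalene, the first step that is committed to sterols. The tag rc_H33426_at read 2477 in synaptosomes against 2512 in whole hippocampus, which is a log2 ratio of 0.15, so its signals were nearly equal. The other probe set that passed, M95591_g_at, read 61 in synaptosomes against 5482 in whole hippocampus, lower in synaptosomes by at least 5.76-fold with centring and by at least 6.48-fold without. The synaptosome reading is not above background, so the bound is set by the floor and is not a guaranteed minimum: its log2 value was -0.89 with the floor at 2798.5 and -0.57 with the floor at each array's noise size, short of 2-fold in both. M95591_at, designed on the same source sequence, read -1227 in synaptosomes against -1340 in whole hippocampus, and rc_H33426_g_at read 569 in synaptosomes against -73 in whole hippocampus. Neither of these was above the floor on an array. With 1 probe set near equal signals and 1 bound below, the array gave no single direction for Fdft1.

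Sqle, squalene epoxidase, inserts the oxygen from which the sterol ring closure starts and is a known control point of the pathway. Its only probe set, D37920_at, read 2670 in synaptosomes against 1281 in whole hippocampus. The synaptosome signal was the higher, by 2.35-fold with centring and 2.08-fold as a plain quotient of signals. Its log2 ratio was 1.23, beside an SD of 0.90 between probe sets of one gene and 1.06 over all passing probe sets with 1 symbol. A lower ratio was found for 86.4% of all genes. Both readings lay under the noise size of their array, so the size of the fold is uncertain, and no second probe set was there to compare.

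Lss, lanosterol synthase, closes epoxidised squalene into lanosterol, the first sterol. Probe set D45252_s_at read 2094 in synaptosomes against 2199 in whole hippocampus, which is a log2 ratio of 0.10. Probe set U31352_at read 981 in synaptosomes against 1135 in whole hippocampus, just above the floor on both, and with a log2 ratio of -0.04 it did not pass the filter on mean level. The 2 designs on different source sequences both lay close to 0, but every reading of them was under the noise size of its array. E12275cds_s_at read -708 in synaptosomes against -1159 in whole hippocampus and has no ratio.

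Dhcr7, the reductase that makes cholesterol from 7-dehydrocholesterol in the last step of one branch of the pathway, is the gene mutated in Smith-Lemli-Opitz syndrome in humans. Probe set AB016800_g_at read 4797 in synaptosomes against 2116 in whole hippocampus, 2.55-fold higher with centring and 2.27-fold as a plain quotient. Probe set AB016800_at read 2653 in synaptosomes against 591, under the floor, in whole hippocampus, at least 3.53-fold higher with centring and at least 3.14-fold without it. Both signals were higher in synaptosomes, with log2 ratios of 1.35 and at least 1.82, and 89.0% of all genes had a ratio under that of the brighter probe set. In 6.99% of 658 genes with 2 or more passing probe sets, every one was at least 2-fold higher. The 2 Dhcr7 probe sets were designed on one source sequence and are not independent of each other. Of their 4 readings only the synaptosome signal of 4797 exceeded its array's noise size, so the bound is not a guaranteed minimum.

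**Figure D2:**
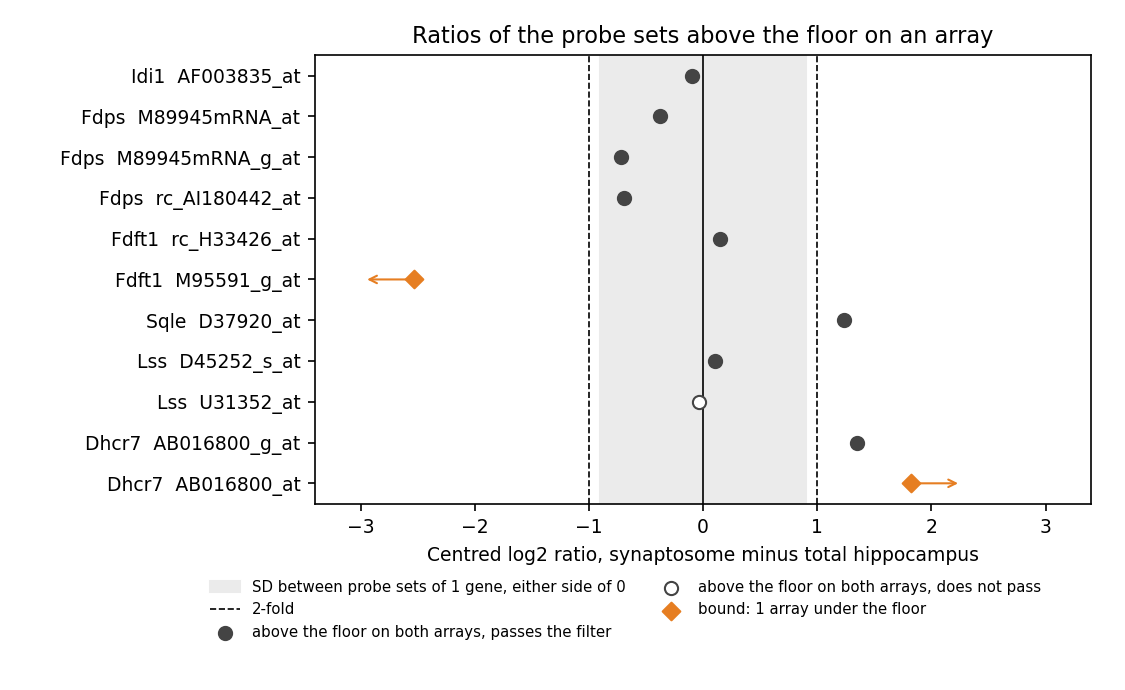
Centred log2 ratio of synaptosome over total hippocampus (x axis) for the 11 probe sets above the floor on at least 1 array, in pathway order. Diamonds with arrows are bounds with 1 array under the floor, the shaded band is the SD of 0.90 between probe sets of one gene on either side of 0, and dashed lines mark 2-fold. Sqle and both Dhcr7 probe sets lie right of the 2-fold line, the 3 Fdps probe sets lie inside the band left of 0, and the Fdft1 probe sets lie at 0.15 and at a bound of -2.53.

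A smaller share of brighter probe sets passed 2-fold upwards. Among 3392 passing probe sets above the floor on both arrays, 13.5% passed 2-fold upwards in synaptosomes and 11% downwards, and 2 of the 8 cholesterol synthesis probe sets among them, those of Sqle and Dhcr7, were at least 2-fold higher. Among 1185 above the noise size on both arrays the shares were 6.75% higher and 12.4% lower. With the noise sizes used as floors instead, 14.3% of 991 genes were at least 2-fold higher and 7.77% lower. Idi1 AF003835_at and Fdps M89945mRNA_at, the members above the noise size on both arrays, had ratios of -0.10 and -0.38.

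**Figure D3:**
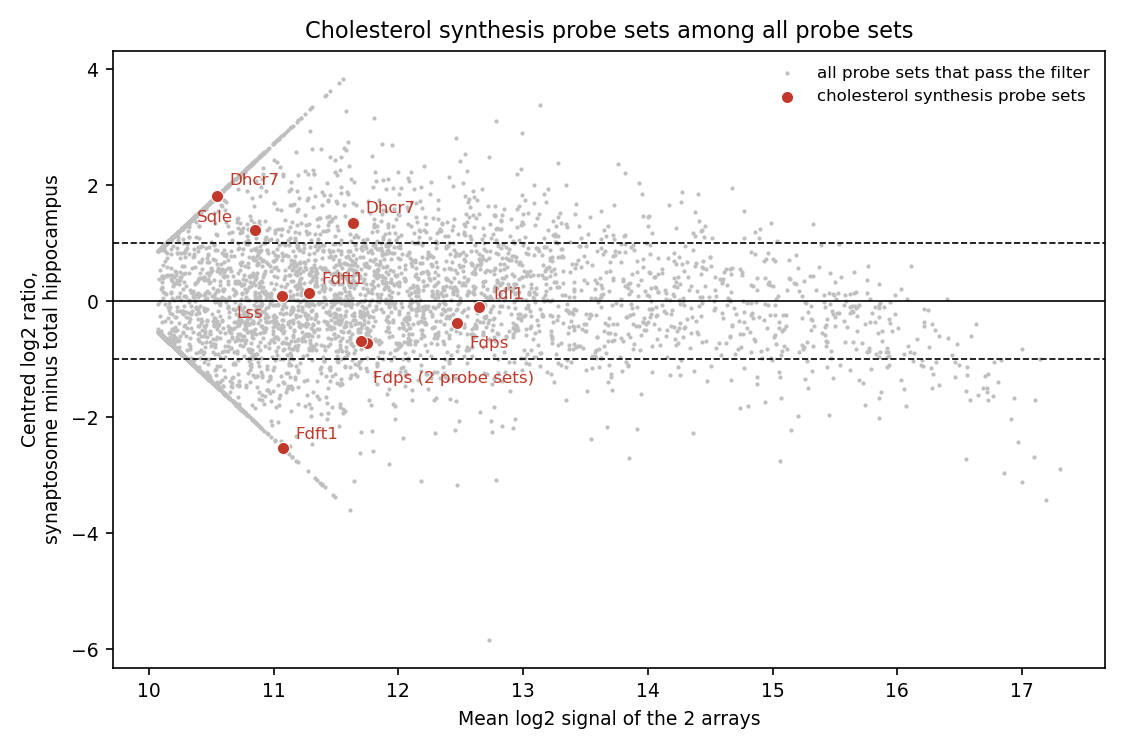
Centred log2 ratio of synaptosome over total hippocampus (y axis) against the mean log2 signal of the 2 arrays (x axis) for the 4370 probe sets that passed the filter (grey) and the 10 of cholesterol synthesis genes among them (red). Dashed lines mark 2-fold, and the slanted edges are probe sets with 1 array at the floor. One Dhcr7 and one Fdft1 probe set lie on these edges, and the others lie within the cloud.

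Other enzymes of sterol synthesis were divided in the same range. Of 9 with a probe set, 4 passed the filter, and 1 of the 4 was at least 2-fold higher and 0 lower, where 19.1% and 14.3% of all genes were, with a median ratio of 0.06. Cyp51, which removes a methyl group from lanosterol, was the higher one. Its brightest probe set, U17697_s_at, read 7971 in synaptosomes against 3829 in whole hippocampus, which is a log2 ratio of 1.23. AB004096_at read 1967 in synaptosomes against 237, under the floor, in whole hippocampus, which is a log2 ratio of at least 1.39, and rc_AA963449_s_at read 1598 in synaptosomes against 1026 in whole hippocampus, a ratio of 0.81. All 3 measured Cyp51 probe sets were thus higher in synaptosomes, while the remaining ones were under the floor on both arrays. Of the Cyp51 readings only the synaptosome signal of 7971 exceeded its array's noise size.

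Msmo1, the sterol methyl oxidase that acts after Cyp51, had lower signals in synaptosomes. Its bright probe set rc_AI172293_at read 21793 in synaptosomes against 28229 in whole hippocampus, which is a log2 ratio of -0.20, and E12625cds_at read 1497 in synaptosomes against 6214 in whole hippocampus, a ratio of -1.88. The ratios of Nsdhl, a sterol dehydrogenase of the same demethylation, and Acat2, the cytosolic thiolase that starts the pathway, were 0.01 and 0.11, and a second probe set of Acat2 had a ratio of -0.20. Hsd17b7, Mvd and Ebp did not pass the filter. Hsd17b7, the ketosteroid reductase of the demethylation steps, read 1139 in synaptosomes against 767 in whole hippocampus, and Mvd, the mevalonate diphosphate decarboxylase, read 1083 in synaptosomes against 125 in whole hippocampus. Ebp, the sterol isomerase, read 357 in synaptosomes against 1121 in whole hippocampus. Each of these had 1 reading near the floor and the other under it. Mvk and Lbr were under the floor on both arrays.

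Enzymes that attach isoprenoid products of Fdps to proteins were compared next. Of 4 genes of the isoprenoid branch that passed, 2 were at least 2-fold higher and 0 lower, against 19.1% and 14.3% of all genes, with a median of 0.75. Fnta and Fntb, the 2 subunits of protein farnesyltransferase, had log2 ratios of 1.22 and 1.11. Fnta read 3201 in synaptosomes against 1546 in whole hippocampus, and Fntb read 5221 in synaptosomes against 2722 in whole hippocampus. Both hippocampus readings lay under the noise size of that array, and a further Fntb probe set was under the floor on both arrays. Without centring Fntb was under 2-fold, at 0.94.

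Among genes of sterol sensing and uptake, 4 passed, of which 1 was at least 2-fold higher and 0 lower, set beside 19.1% and 14.3% of all genes, with a median of 0.99. Scarb2, a lysosomal membrane protein of the scavenger receptor family, read 7376 in synaptosomes against 2138, under the noise size, in whole hippocampus. This is a log2 ratio of 1.96. A companion design on the same source sequence, D10587_g_at, read 1209 in synaptosomes against 138 in whole hippocampus. Its ratio of at least 0.69 did not pass the filter. Srebf1 read -222 in synaptosomes against 262 in whole hippocampus, so it was not measured above the floor. Srebf2, the gene of SREBP2, had no probe set with a single symbol and is not analysed here.

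Of 8 passing genes of sterol transport, esterification and breakdown, 1 passed 2-fold upwards in synaptosomes and 2 downwards, beside 19.1% and 14.3% of all genes, with a median of 0.16. Apod, a lipid-binding apolipoprotein, read 14393 in synaptosomes against 56874 in whole hippocampus, which is a log2 ratio of -1.81. Cyp27a1, the sterol 27-hydroxylase, read 896 in synaptosomes against 3165 in whole hippocampus, a ratio of -1.65. Cyp7b1, an oxysterol hydroxylase, read 1576 in synaptosomes against 556 in whole hippocampus, a ratio of at least 1.07 that was under 2-fold without centring, at 0.90. All readings of Cyp27a1 and Cyp7b1 lay under the noise size of their array. Apoe, the carrier of cholesterol from astrocytes to neurons, pointed both ways. Its brighter probe set X04979_at read 48968 in synaptosomes against 100453 in whole hippocampus, a ratio of -0.87 that was past 2-fold lower without centring, at -1.04. Its other probe set S76779_s_at read 12018 in synaptosomes against 3543, under the noise size, in whole hippocampus, a ratio of 1.93. Cyp46a1, the neuronal cholesterol 24-hydroxylase, had no probe set with a single symbol.

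**Figure D4:**
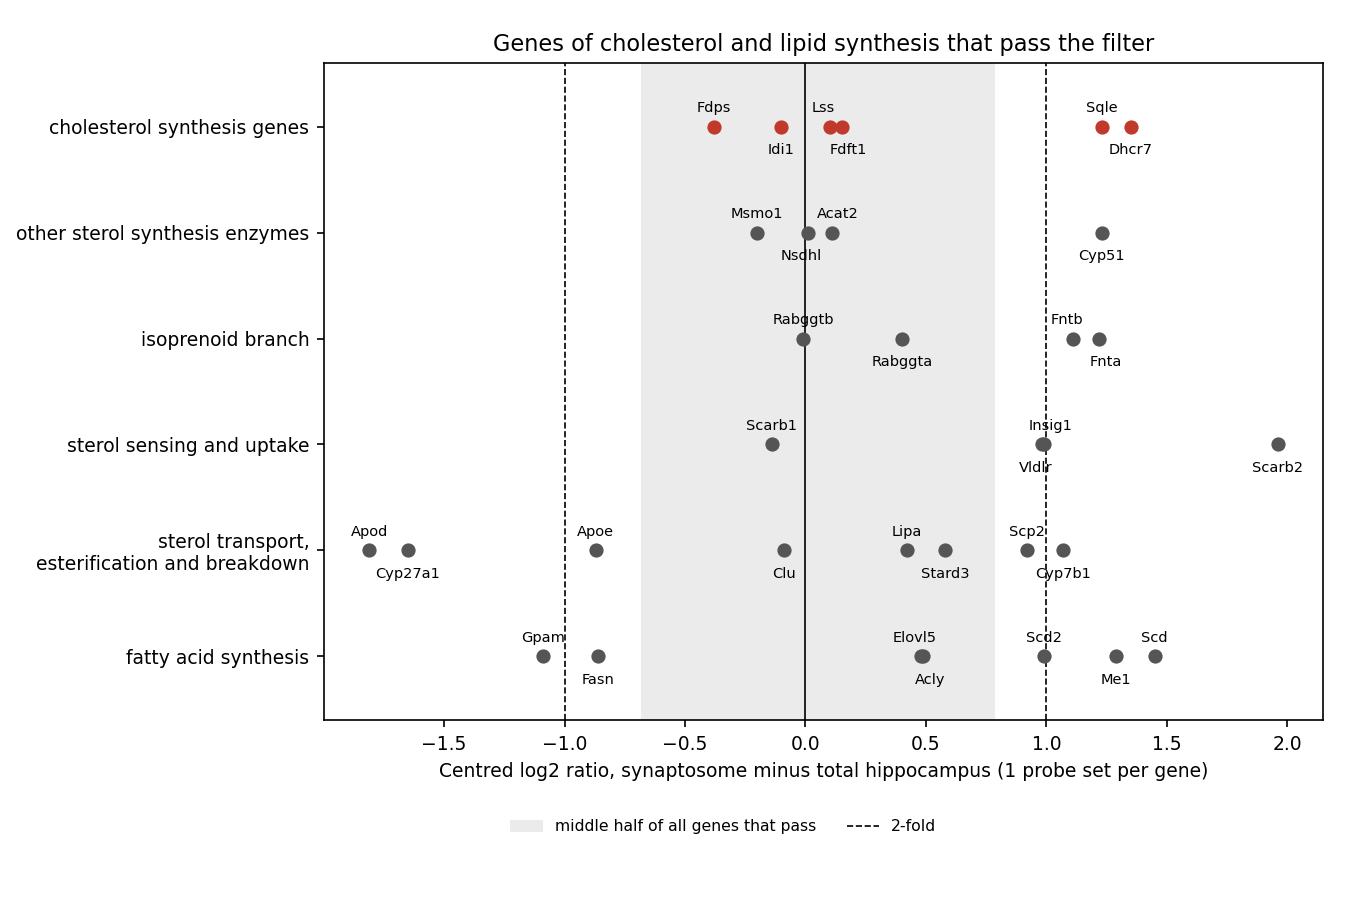
Centred log2 ratio of synaptosome over total hippocampus (x axis) of every gene that passed the filter, 1 probe set per gene, in the cholesterol synthesis genes (red) and 5 related lists (grey). The shaded band holds the middle 50% of all 2735 genes, from -0.68 to 0.78, and dashed lines mark 2-fold. Every row has at least 1 gene right of the upper dashed line, and 4 of the 6 cholesterol synthesis genes lie inside the band.

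Cell type markers were compared because astrocytes and oligodendrocytes make much of the brain's cholesterol. The shares of all genes to set beside the marker counts are 19.1% past 2-fold upwards in synaptosomes and 14.3% downwards. Whether any marker list departs from these shares was not tested. All 9 astrocyte markers with a probe set passed the filter, 2 at least 2-fold higher and 1 lower, with a summed signal of 221099 in synaptosomes and 225855 in whole hippocampus. All 8 oligodendrocyte markers passed, 1 higher and 3 lower, with a summed signal of 36248 in synaptosomes and 55851 in whole hippocampus. Mbp, the myelin basic protein, read 1535 in synaptosomes, under the noise size, against 8123 in whole hippocampus. Cnp, the myelin phosphodiesterase, went the other way with 8614 in synaptosomes against 3627, also under the noise size, in whole hippocampus. All 9 neuronal markers passed, 0 higher and 2 lower, with a summed signal of 108662 in synaptosomes and 190615 in whole hippocampus. Snap25 alone gave 32782 of the sum in synaptosomes and 109086 in whole hippocampus, and the median ratio of the 9 neuronal markers was 0.15. RNA of glia was thus measured in both samples, and its part in the ratios of the cholesterol synthesis genes was not tested. Of 6 microglial and blood markers with a probe set, 2 passed, with 0 higher and 1 lower, and Csf1r and Itgam were under the floor on both arrays. The sums over all 6, with signals under the floor set to it, were 20404 in synaptosomes and 44077 in whole hippocampus. The marker called lower was Hbb, a globin of blood, with 6811 in synaptosomes against 35126 in whole hippocampus. The microglial Aif1 had 9709 in synaptosomes against 5538 in whole hippocampus on its brighter probe set. Of 10 vascular and meningeal markers, 7 passed, with 1 higher and 2 lower, and Col3a1, Tagln and Vwf were under the floor on both. The sums over all 10, formed in the same way, were 32505 in synaptosomes and 40787 in whole hippocampus. In such bulk RNA, fewer cells or fragments of a type and less RNA in each cannot be told apart. The 3′ over 5′ signal of a transcript is higher when less of its 5′ part was copied from the poly(A) tail. For beta-actin it was 7.79 in synaptosomes and 4.96 in whole hippocampus, and for GAPDH 1.07 in synaptosomes and 1.05 in whole hippocampus. The part of this beta-actin difference in the ratios, and in the differences between probe sets of Fdft1, was not tested.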

How the data were processed

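The data are the value table of 2 arrays, 1 of synaptosomal and 1 of total hippocampal RNA. The deposited intensities are linear whole numbers for 8799 probe sets, 59 of them controls. Per the labels' protocols the RNA was column-purified, amplified as cDNA and labelled with biotin. The scanner software is not given in the sources used here. Signals at or below 0 made up 25.2% of synaptosome and 31.4% of hippocampus non-control values. Signals were floored at the median (percentile 50) of both arrays, controls left out, log2-transformed, and the ratio centred. The filter kept probe sets whose mean log2 level was at or above the median, 10.07. Gene names came from the platform annotation, where 7006 of 8740 non-control probe sets had 1 symbol, 308 several and 1426 none. Of the 7006, 6985 matched the RefSeq table of GRCr8 by gene identifier and 0 symbols changed. A gene took its passing probe set with the highest mean level.

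The members, lists and settings were chosen with earlier results of these data known. Named were all member probe sets, all other sterol enzymes above the floor on an array, up to 3 genes past 2-fold in each direction per other list, and Srebf1, Srebf2, Apoe and Cyp46a1. One gene that the rule lists by symbol is not reported here. No p-value was computed. The calculations, in Python 3.11.15 with NumPy 2.4.6, pandas 2.3.3 and statsmodels 0.14.6, were tested on simulated data, and plots used matplotlib 3.10.9. The simulated arrays had no added noise and only bright probe sets were changed, so the calls on weak signals were not tested. Alternatives were other floors, no centring, quantile and loess normalization, other filters, leaving out suffixed probe sets, and the mean over probe sets.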

Additional observations from a re-analysis of the deposited data

How the results depend on the processing

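The number of probe sets that passed differs between settings, so each count is given with it. The count of 4 of 10 cholesterol synthesis probe sets past 2-fold was 0 of 6 with the floor at 2798.5. It was 0 of 3 with the floor at each array's noise size. It was 2 of 9 with only probe sets above the floor on both arrays and 2 of 7 without suffixed probe sets. It stayed at 4 of 10 with no centring, quantile normalization and loess correction, and was 4 of 11 with no filter. With 1 probe set per source sequence, an alternative chosen after seeing the data, it was 3 of 8. The higher floors leave 6 and 3 of these probe sets with a ratio that passed. With the same 2 floors, the 10 of 27 genes past 2-fold in the 5 related lists became 3 of 19 and 3 of 13. The 913 of all 2735 genes became 309 of 1719 and 219 of 991. With only probe sets above the floor on both arrays the count for all genes was 545 of 2234, and without suffixed probe sets 830 of 2282. It was 935 of 2735 with no centring, 907 of 2734 with quantile normalization, 898 of 2735 with loess correction and 924 of 3232 with no filter. The median of the member genes ran from -0.32 with the floor at 2798.5 to 0.10 with loess correction, against 0.12. Without centring, 43.1% of all genes past 2-fold were higher, against 57.2%, and 50% of those in the related lists, against 70%. Sqle had no ratio with either higher floor, and Dhcr7 AB016800_g_at had none with the noise-size floor or without suffixed probe sets. Over the alternatives that left a ratio, that of Sqle ran from 1.06 to 1.25, that of Dhcr7 AB016800_g_at from 0.86 to 1.31 and the bound of Fdft1 M95591_g_at from -2.70 to -0.57. The ratios of the 3 Fdps probe sets stayed below 0, from -0.89 to -0.20. No paired analysis was possible because each group has 1 array. Every cholesterol synthesis ratio except those of Idi1 AF003835_at and Fdps M89945mRNA_at has at least 1 reading under the noise size of its array. The hippocampus readings of these 2, 7050 and 6844, lay not far above the noise size of 5280.25.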

Other observations

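Genes of fatty acid synthesis, which share SREBP control with the sterol pathway, were described separately. Of 7 that passed the filter, 2 were at least 2-fold higher in synaptosomes and 1 at least 2-fold lower, beside 19.1% and 14.3% of all genes, with a median log2 ratio of 0.49. Me1, the malic enzyme that supplies NADPH, had 3 passing probe sets with ratios of 1.29, at least 1.44 and at least 1.36. The brightest read 2342 in synaptosomes against 1077 in whole hippocampus. Scd, a stearoyl-CoA desaturase, read 2058 in synaptosomes against 214 in whole hippocampus, a ratio of at least 1.45, and its other probe set was under the floor on both arrays. Gpam, which starts glycerolipid synthesis, read 283 in synaptosomes against 2021 in whole hippocampus, a ratio of at most -1.09. All of these readings lay under the noise size of their array. Chosen after its values were seen, the brighter Scd2 read 62849 in synaptosomes against 35709 in whole hippocampus with rc_AA875269_at, a ratio of 0.99, and 42349 in synaptosomes and 20899 in whole hippocampus with M15114_g_at, a ratio of 1.19. Of its other passing probe sets, U67995_s_at had a ratio of 1.34, AF036761_at one of 0.29 and S75730_at, which pointed the other way, one of -0.51.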
